A study of Mus musculus with 24 samples.

Results

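The comparison described here sets 2 hairpins against the same gene beside each other: R1 mouse embryonic stem (ES) cells carrying shCdk8-1 and R1 cells carrying shCdk8-2, both 8 days after lentiviral infection. Each hairpin has 3 arrays, so 6 of the 24 arrays of the series were compared, chosen by the hairpin, day and replicate in their titles. The 3 arrays of day 8 with shNTC, a non-targeting hairpin, give the level without Cdk8 knockdown, and the 6 arrays of the same Cdk8 hairpins on day 13 were used to look at the differences again. All of these cells were infected R1 cells, the controls included, and no uninfected cells entered the comparison. Every array carried RNA of the cells in Cy5 and Stratagene's universal reference, pooled RNA of several mouse cell lines, in Cy3, with no dye swaps. The 3 shNTC arrays of day 13 are the control of that day. The arrays of 2 Med12 hairpins on day 13 entered the shared estimate of the spread, the filter on dim probes and the choice of probe. In fits that take the slide into account they also entered the slide effects, and so the hairpin difference. Replicates are biological by their labels, with no word on separate infections or cultures, so the p-values cover only the spread among these arrays. No label gives a selection step after infection. In bulk RNA, fewer cells of a type and less RNA per cell cannot be told apart.

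Cdk8 encodes the cyclin-dependent kinase of the Mediator kinase module, which sits on the Mediator complex, the bridge from transcription factors to RNA polymerase II. The module also holds cyclin C, Med12, which activates the kinase, and Med13, and Cdk19 can take the place of Cdk8. In ES cells Mediator is known for its part in genes of cell identity. A short hairpin RNA is processed to a small guide RNA that lowers the transcript it pairs with, and separate hairpins against a gene pair with separate stretches of its transcript. Set against each other, the hairpins therefore share the target and differ in the guide, and they may differ in how far the target is lowered.

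Values are log2 ratios of Cy5 over Cy3 after background correction and loess, so 1 unit is 2-fold, and a negative ratio means less than in the reference mixture. A difference is shCdk8-2 minus shCdk8-1 on this scale, with the standard error (SE) of a limma fit over all 24 arrays. A gene was called when its p, adjusted over all 22394 genes by the Benjamini-Hochberg method, was under 0.05. Between 62.3% and 76.1% of the spots on the 6 arrays were well above background in Cy5. The first shCdk8-1 array of day 8 stood apart: its log ratios had a slope of 0.78 on the mean of the other arrays of its group, against 1.10 and 1.11 for the other two, so high and low genes on it lie closer to 0. On that array 4 spots lay far below their local background. After spot backgrounds far above the array's median were replaced and the background model was fitted again, the slopes were 0.97, 1.01 and 1.01. This refitted background was chosen after the slopes were seen, and its values stand beside the main ones wherever they move a result. Outside the 6 arrays, shMed12-1 replicate 3 of day 13 had a slope of 0.79, or 1.01 with the refitted background. That array entered the shared spread. The 3 arrays of shCdk8-1 lay on slides 4, 5 and 6 and those of shCdk8-2 on slides 7, 8 and 1, so no slide held both hairpins on day 8. With slide as a fixed block, the hairpins are compared only through other groups on the same slides, and that value is given where a named gene lost its call under it. The Cy5 RNA was that of ES cells: with the refitted background, the mean log2 ratio of 6 ES cell markers lay between 6.82 and 7.15 on the 6 arrays and that of 6 fibroblast markers between -5.31 and -4.57.

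The depth of Cdk8 loss on day 8 depended on the probe. On the brighter Cdk8 probe the log2 ratios were -0.57, -0.41 and -0.55 with shNTC, -1.27, -1.33 and -1.05 with shCdk8-1, and -0.87, -0.85 and -0.73 with shCdk8-2. The 3 groups did not overlap, and shCdk8-2 lay between the other groups. Against shNTC, Cdk8 fell by 0.71 with shCdk8-1 (adjusted p = 1.4e-06), to 61% of the control level, and by 0.31 with shCdk8-2 (adjusted p = 0.0075), to 81%. The hairpin difference was 0.40 (95% interval 0.24 to 0.55, SE 0.07, limma adjusted p = 7.9e-04), or 0.47 after the refit. As a fixed block, slide brought it to 0.19 and it was no longer called (adjusted p = 0.30). It was also not called in a fit of the 6 arrays alone (0.40, adjusted p = 0.072), and with the background estimated as in RMA it was -0.017.

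The dimmer Cdk8 probe did not show that order. Its log2 ratios were -0.35, -0.54 and -0.32 with shNTC, -0.51, -0.72 and -0.88 with shCdk8-1, and -0.70, -0.87 and -0.81 with shCdk8-2. The arrays of the hairpins overlapped, and the first shCdk8-1 array overlapped shNTC. On this probe Cdk8 was at 81% of shNTC with shCdk8-1 and at 76% with shCdk8-2, and the hairpin difference was -0.09 (95% interval -0.28 to 0.10, adjusted p over all kept probes = 0.56). The gap between the probes differed by 0.49 between the hairpins (exact permutation test, two-sided, p = 0.1, the smallest that 3 against 3 arrays can give). A lower residual Cdk8 level with shCdk8-1 thus rests on 1 of 2 probes. On day 13 the brighter probe again read higher with shCdk8-2, by 0.31 (adjusted p = 0.0072). With slide as a block this was 0.19 and not called (adjusted p = 0.21). In the 1 array of each hairpin on day 13 that lay on a slide not used for that hairpin on day 8, it was 0.092. On the brighter probe 52% of the shNTC level was left with shCdk8-1 and 64% with shCdk8-2, while on the dimmer probe 74% and 79% were left.

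**Figure D1:**
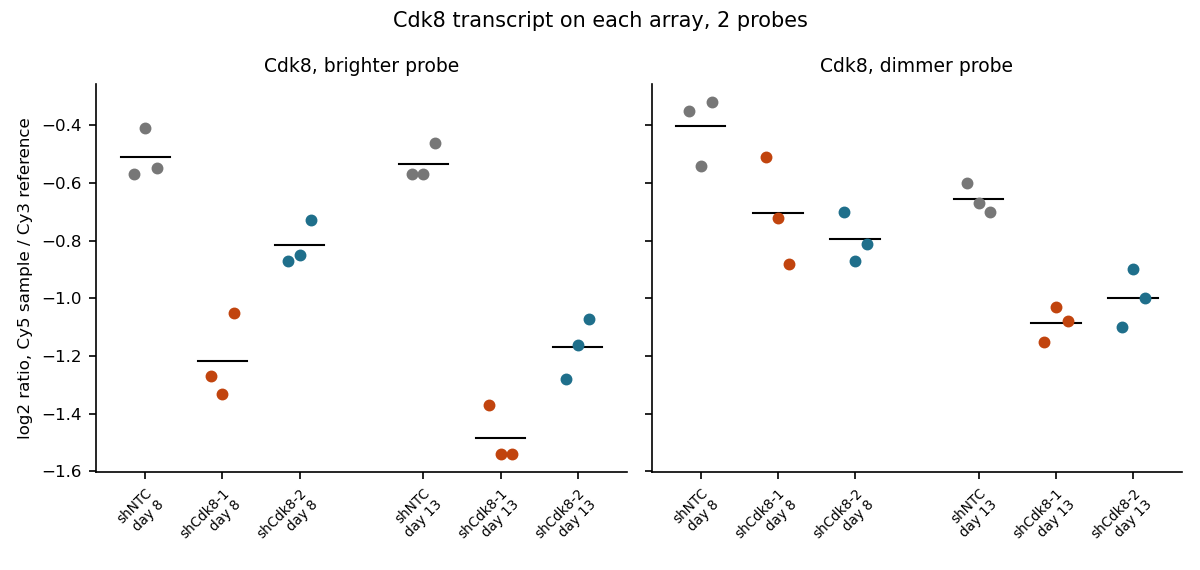
Cdk8 on each array of shNTC, shCdk8-1 and shCdk8-2 on days 8 and 13, as the log2 ratio of the sample to the reference RNA (y axis), for the brighter probe (left) and the dimmer probe (right). Points are arrays and bars the means of 3; on day 8 the hairpins are apart on the brighter probe, by 0.40, and overlap on the dimmer one.

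The other measured genes of the kinase module were not called between the hairpins. Ccnc (cyclin C) differed by 0.10 (adjusted p = 0.50), Cdk19 by -0.14 (adjusted p = 0.36), Med12 by 0.09 (adjusted p = 0.49) and Med13l, a Med13 paralog, by 0.19 (adjusted p = 0.15). Their 95% intervals reached from -0.34, for Cdk19, to 0.38, for Med13l, so differences within those limits were not excluded. The unadjusted Med13l interval began at 0.0071 and left out 0. A second Ccnc probe read 0.26 (95% interval 0.041 to 0.49, limma adjusted p over all kept probes = 0.098). Med12 was above shNTC with both hairpins, by 0.25 (adjusted p = 0.029) with shCdk8-1 and by 0.34 (adjusted p = 0.0051) with shCdk8-2, comparisons that share the shNTC arrays.

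Beyond the target, 3999 genes were called between the hairpins on day 8, 17.9% of all genes, with 2061 higher (9.2%) and 1938 lower (8.65%) with shCdk8-2. Centring the arrays on their median in place of loess gave 231 higher and 603 lower and moved the median of all genes to -0.13. Most differences were small: 63 called genes (0.281%) differed at least 2-fold, 29 of them higher (0.129%) and 34 lower (0.152%). The refitted background gave 5236 calls (23.4%), 12.5% of all genes higher and 10.8% lower, of which 56 (0.25%) were at least 2-fold, now 8 higher (0.0357%) and 48 lower (0.214%). The excess of large differences toward lower levels with shCdk8-2 was thus small in the main fit and larger after the refit, which took in all arrays. With slide as a fixed block the calls fell to 610 (2.72%), with 263 higher (1.17%) and 347 lower (1.55%), and with both the block and the refitted background there were 1599 (7.14%), 842 higher (3.76%) and 757 lower (3.38%). The Cy3 channel taken alone, which holds the same reference RNA on every array, gave 10 calls (0.0447%) between the same arrays, against 4963 (22.2%) for Cy5 taken alone, although 2673 genes (11.9%) had an unadjusted p under 0.05 in Cy3.

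Set against shNTC, 3784 genes (16.9%) were called with shCdk8-1, 8.68% of all genes higher and 8.22% lower, and 3143 (14%) with shCdk8-2, 7.41% higher and 6.63% lower. The 2 counts share the shNTC arrays, and their difference was not tested.

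Among genes with a symbol, the largest differences between the hairpins were genes lower with shCdk8-2. They fell into patterns that the shNTC arrays tell apart. In the first, the gene was raised by shCdk8-1 and stayed near control with shCdk8-2. Stac3, a protein of muscle excitation-contraction coupling, had log2 ratios of 1.11, 0.94 and 1.35 with shCdk8-1, -0.88, -0.90 and -0.92 with shCdk8-2, and -0.71, -0.86 and -0.83 with shNTC. Its difference was -2.03 (SE 0.10, limma adjusted p = 8.3e-11), from a rise of 1.93 over shNTC with shCdk8-1 (adjusted p = 2.9e-10) and -0.10 with shCdk8-2 (adjusted p = 0.61). All 3 shCdk8-1 arrays stood far above the 6 others.

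Prickle1, a planar cell polarity protein, showed the same order, with 1.40, 1.53 and 1.49 with shCdk8-1, -0.26, -0.27 and -0.15 with shCdk8-2 and -0.27, -0.27 and -0.21 with shNTC. Its difference was -1.70 (SE 0.05, adjusted p = 5.2e-14), and -0.36 on a second probe (adjusted p over probes = 0.028). Acss1, a mitochondrial acetyl-CoA synthetase, rose by 1.67 over shNTC with shCdk8-1 and by 0.34 with shCdk8-2 (adjusted p = 0.0052), a hairpin difference of -1.33 (adjusted p = 4.2e-10). Glod5, a glyoxalase domain protein, rose by 1.41 with shCdk8-1 and read 0.10 above shNTC with shCdk8-2 (adjusted p = 0.58). Sox9, a transcription factor of cartilage and neural stem cells, rose by 1.13 with shCdk8-1 (adjusted p = 0.0035) and was -0.19 from shNTC with shCdk8-2, where only 2 of 3 arrays were well above background. Other Sox9 probes differed by -0.78 (adjusted p over probes = 0.036) and -0.12 (adjusted p = 0.40).

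In the second pattern, the gene was lowered by shCdk8-2 and stayed near control with shCdk8-1. Dhrs7, a short-chain dehydrogenase, had -2.55, -2.70 and -2.81 with shCdk8-1, -4.09, -4.18 and -4.22 with shCdk8-2 and -2.47, -2.55 and -2.56 with shNTC. It fell by 1.64 against shNTC with shCdk8-2 (adjusted p = 5.8e-12) and read -0.16 with shCdk8-1 (adjusted p = 0.11), and the hairpin difference was -1.48 (SE 0.07, adjusted p = 1.4e-11). Fhl2, a LIM domain cofactor, fell by 1.05 with shCdk8-2 and was at 0.13 with shCdk8-1 (adjusted p = 0.26). Bmper, a secreted BMP-binding protein, fell by 0.97 (adjusted p = 0.0020) against 0.23 (adjusted p = 0.48), with a second probe at a hairpin difference of -0.60 (adjusted p over probes = 0.053), and Glipr1 fell by 1.04 (adjusted p = 0.0012) against 0.21 (adjusted p = 0.53).

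In 3 of the 12 genes with the lowest differences the hairpins moved away from shNTC in opposite directions. Foxa2, a forkhead transcription factor of endoderm, had 1.84, 2.30 and 2.23 with shCdk8-1, 0.42, 0.37 and 0.49 with shCdk8-2 and 1.77, 1.80 and 1.74 with shNTC. It rose by 0.35 with shCdk8-1 (adjusted p = 0.0080) and fell by 1.34 with shCdk8-2 (adjusted p = 2.9e-09), and the hairpins differed by -1.70 (SE 0.09, adjusted p = 8.3e-11). Aqp8, a water channel, rose by 0.49 (adjusted p = 8.8e-04) and fell by 1.30 (adjusted p = 8.1e-09), a difference of -1.79. Tnfrsf25, a receptor of the tumour necrosis factor family, rose by 0.68 and fell by 0.54, a difference of -1.22 (adjusted p = 8.3e-11). A second Tnfrsf25 probe read -0.18 (adjusted p over probes = 0.19), or -0.26 after the refit (adjusted p = 0.017), so the size rests on 1 of 2 probes.

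These are the 12 lowest differences among genes with a symbol that were called and whose arrays did not overlap. Over all genes, with a symbol or without, 3688 (16.5%) were called without overlap. The 12 lay between -2.03 and -1.18. All 12 were called at 2-fold or more after the refit, and 11 of 12 were called with slide as a block. The exception was Glipr1, with -1.20 (adjusted p = 0.064) under the block. With the block and the refitted background together, all 12 were called.

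**Figure D2:**
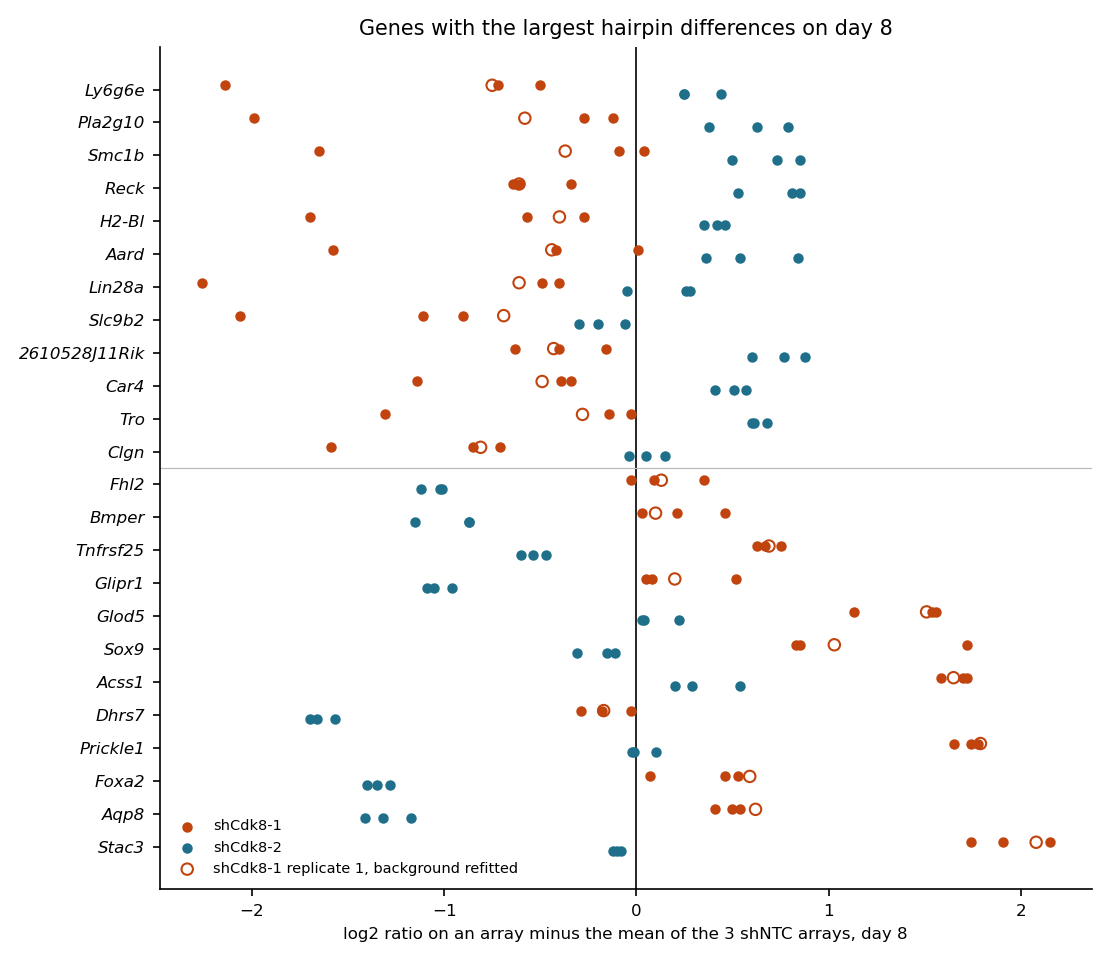
The 12 highest and the 12 lowest hairpin differences on day 8 among called genes with a symbol whose arrays did not overlap. Values are the log2 ratio on each array minus the mean of the 3 shNTC arrays (x axis). Filled points are arrays and open circles the first shCdk8-1 array with the refitted background; for 10 of the upper 12 genes, all but Reck and 2610528J11Rik, that array lies well to the left of its group before the refit, and no shCdk8-1 array overlaps a shCdk8-2 array in any gene shown.

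The 12 highest differences moved more with the background fit, since high ratios lay closer to 0 on the first shCdk8-1 array. Pla2g10, a secreted phospholipase, had 1.84, 3.56 and 3.71 with shCdk8-1 and 4.46, 4.21 and 4.62 with shCdk8-2. Its difference of 1.40 (SE 0.35, adjusted p = 0.0078) became 0.93 with the refitted background (adjusted p = 8.0e-07), where the first array read 3.25. Ly6g6e, of the Ly6 family, went from 1.43 to 0.97, Lin28a, the RNA-binding protein that blocks let-7 maturation, from 1.21 to 0.66, and Smc1b, a meiotic cohesin, from 1.26 to 0.84. H2-Bl, an MHC class I gene with near-identical relatives whose RNA may reach the same probe, went from 1.25 to 0.82. All 12 stayed called with the refitted background, at 0.66 to 1.35, and 2 of them remained at least 2-fold.

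Those 2 genes were Reck and 2610528J11Rik, and they alone of the 12 were also called with slide as a block in the main fit. With the block and the refitted background together, 8 of the 12 were called. Reck, a membrane-anchored inhibitor of matrix metalloproteinases, had -0.86, -1.16 and -1.13 with shCdk8-1, 0.01, 0.33 and 0.29 with shCdk8-2 and -0.61, -0.51 and -0.44 with shNTC. It fell by 0.53 with shCdk8-1 (adjusted p = 3.4e-04) and rose by 0.73 with shCdk8-2 (adjusted p = 1.4e-05). The hairpins differed by 1.26 (SE 0.09, adjusted p = 8.2e-09), by 1.35 with the refitted background and by 1.29 with the slide block (adjusted p = 5.2e-04). 2610528J11Rik differed by 1.14 (adjusted p = 4.1e-05), and by 1.24 with the block (adjusted p = 0.010).

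Endoderm genes were more often lower than higher with shCdk8-2. Of 32 measured endoderm genes, 14 were called lower (43.8%, against 8.65% of all genes) and 2 higher, and their median difference was -0.41, against -0.0075 over all genes. After the refit 19 were lower (10.8% of all genes) and 2 higher, and under the slide block 7 were lower (1.55% of all genes) and none higher. After Aqp8 and Foxa2 came Col4a1, a basement membrane collagen, at -0.89 (adjusted p = 4.9e-08) and Gata6, a transcription factor of primitive endoderm, at -0.76 (adjusted p = 8.1e-04; slide block -0.77, adjusted p = 0.10). The Gata6 difference rests on 1 of 3 probes, since the others read -0.18 (adjusted p over probes = 0.52) and -0.049 (adjusted p = 0.69). Gata4 (-0.07, adjusted p = 0.67) and Sox7 (-0.25, adjusted p = 0.062; -0.32 and called with the refitted background, adjusted p = 0.0078) were not called.

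The keratin pair of simple epithelia moved alike. Krt18 had -2.36, -2.39 and -2.42 with shCdk8-1, -3.06, -3.05 and -3.16 with shCdk8-2 and -1.94, -1.89 and -1.87 with shNTC. No array overlapped another group. Against shNTC it fell by 0.49 with shCdk8-1 and by 1.19 with shCdk8-2, and the hairpins differed by -0.70 (SE 0.05, adjusted p = 9.4e-09). Krt8, its partner, fell by 0.53 and by 1.16, a difference of -0.63 (adjusted p = 2.6e-07), and Krt7 differed by -0.67 (adjusted p = 7.8e-05). Igf2, the imprinted growth factor, fell by 0.58 and by 1.20, a difference of -0.62 (adjusted p = 6.3e-08). In Krt18, Krt8 and Igf2 the fall from shNTC was larger with shCdk8-2, the hairpin with more Cdk8 left on the brighter probe and with about the same on the dimmer one. Not all epithelial genes moved that way: of 23 measured, 6 were lower and 6 higher (26.1% each), among the latter the tight junction gene Cldn6 at 1.04 (adjusted p = 0.0031, 0.81 refitted) and Cldn7 at 0.35 (adjusted p = 0.0014), neither called under the slide block (adjusted p = 0.21 and 0.079). Mean log2 ratios of 6 primitive endoderm markers on single arrays, refitted, were -1.42 to -1.32 with shCdk8-1 and -1.74 to -1.66 with shCdk8-2. The part of any endoderm-like cells in the keratin and Igf2 differences was not tested.

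All 4 ID genes, which encode inhibitors of basic helix-loop-helix factors and are targets of BMP signalling, were lower with shCdk8-2. Id2 had -0.98, -1.12 and -1.18 with shCdk8-1, -2.38, -2.21 and -2.19 with shCdk8-2 and -2.44, -2.39 and -2.27 with shNTC, so that shCdk8-1 alone was off the control level. Its difference was -1.17 (SE 0.07, adjusted p = 3.1e-10). Id1 differed by -0.78 (adjusted p = 2.3e-08), Id4 by -0.65 (adjusted p = 3.3e-04, slide block adjusted p = 0.087) and Id3, which was named after its values were seen, by -0.55 (adjusted p = 6.2e-05). Of the 34 TGF-beta, NODAL and BMP genes, 9 were lower (26.5%, against 8.65% of all genes) and 5 higher (14.7%, against 9.2%). Among the higher were Lefty1, a NODAL antagonist, at 0.73 (adjusted p = 0.0018, 0.53 refitted, slide block adjusted p = 0.27), and Tgif1, a SMAD corepressor, at 0.52 (adjusted p = 0.0017; slide block 0.16, adjusted p = 0.55).

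Of 28 neural genes 6 were lower with shCdk8-2 (21.4%, against 8.65% of all genes) and 2 higher (7.14%, against 9.2%). After the refit 11 were lower (10.8% of all genes) and 2 higher, and under the slide block 4 were lower and 1 higher. Fabp7, a fatty acid binding protein of radial glia, differed by -0.91 (adjusted p = 4.5e-06), though only 1 of the 3 shCdk8-2 arrays was well above background, and Meis2, a homeobox gene, by -0.86 (adjusted p = 2.1e-06). Against shNTC, Meis2 rose by 1.06 with shCdk8-1 and read 0.21 with shCdk8-2. Sox21, another SOX gene, ran the other way at 0.78 (adjusted p = 7.0e-04). Of 22 primed epiblast genes 3 were higher and 3 lower (13.6% each). Otx2, a homeobox gene of the epiblast, was among the higher at 0.88 (adjusted p = 0.047, slide block adjusted p = 0.48), and Hes6, a bHLH cofactor, among the lower. Hes6 had 1.57, 1.61 and 1.56 with shCdk8-1, 0.48, 0.55 and 0.60 with shCdk8-2 and 0.13, 0.12 and 0.09 with shNTC, a difference of -1.04 (adjusted p = 1.6e-11). Of 26 HOX genes 3 were called, all lower with shCdk8-2, a share near the 8.65% of all genes. Hoxb2 was at -0.81 (adjusted p = 1.1e-05) and Hoxb13 at -0.53 (adjusted p = 2.3e-05). With the refitted background 7 HOX genes were lower (10.8% of all genes) and 1 higher. Under the slide block 2 were lower (1.55% of all genes) and none higher.

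Core pluripotency genes gave no firm hairpin difference. Pou5f1 had 4.54, 5.66 and 6.12 with shCdk8-1 and 6.03, 6.32 and 6.34 with shCdk8-2, with 1 shCdk8-1 array inside the range of the other group. Its difference of 0.78 (adjusted p = 0.039) fell to 0.43 with the refitted background and was not called there (adjusted p = 0.12) nor under the slide block (0.36, adjusted p = 0.68). Sox2 differed by 0.60 (adjusted p = 0.41) and by -0.04 with the refitted background. Zfp42 (0.62, adjusted p = 0.20), Esrrb (0.56, adjusted p = 0.10) and Klf4 (-0.01, adjusted p = 0.95) were not called. Of 33 naive and general pluripotency genes, 8 were higher (24.2%, against 9.2% of all genes) and 3 lower (9.09%, against 8.65%), with a median of 0.31 that became 0.10 with the refitted background.

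Some genes of that list were called with both backgrounds. Tbx3, a T-box factor of naive cells, had 2.37, 2.41 and 2.32 with shCdk8-1, 2.90, 2.72 and 2.72 with shCdk8-2 and 3.06, 3.10 and 3.20 with shNTC. It fell with both hairpins, by 0.75 and by 0.34, and the difference was 0.41 (adjusted p = 7.5e-04; slide block 0.51, adjusted p = 0.018). Dnmt3l, the partner of the de novo DNA methyltransferases, differed by 0.84 (adjusted p = 1.3e-05) and by 0.74 with the refitted background. The target of LIF signalling Socs3 ran the other way at -0.47 (adjusted p = 2.4e-05).

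Oocyte and 2-cell genes moved with the background fit. Of 27 oocyte and germ line genes 6 were higher (22.2%, against 9.2% of all genes) and 2 lower (7.41%, against 8.65%). After the refit 9 were higher (12.5% of all genes) and 3 lower (10.8% of all genes), while the median went from 0.25 to 0.10. Under the slide block none was higher and 1 was lower. Khdc3, an oocyte gene of the subcortical maternal complex, fell by 1.73 with shCdk8-1 and by 0.76 with shCdk8-2 (adjusted p = 0.042), and the hairpins differed by 0.96 (adjusted p = 0.0090, 0.56 refitted), not called under the slide block (adjusted p = 0.17). Rpl39l, a ribosomal protein paralog, was lower with shCdk8-2 at -0.74 (adjusted p = 3.8e-08; slide block -0.60, adjusted p = 0.0066). Of 11 measured genes of the 2-cell-like state, 3 were lower (27.3%, against 8.65% of all genes) and none higher. With the refitted background 9 were lower (10.8% of all genes), and the median moved from -0.25 to -0.48. Zfp352, a 2-cell gene with a close paralog, had 2.16, 3.45 and 3.63 with shCdk8-1 and 2.03, 2.06 and 2.25 with shCdk8-2. The arrays overlapped, through the first shCdk8-1 array, and the difference of -0.97 (adjusted p = 0.018) became -1.38 with the refitted background (adjusted p = 2.0e-09) and -0.87 under the slide block (adjusted p = 0.41).

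Genes of the amino acid stress response were more often higher than lower with shCdk8-2. The response runs through the transcription factor ATF4, which is translated when amino acids are short or the endoplasmic reticulum is loaded and which raises transporters, amino acid enzymes and regulators such as Chac1 and Trib3. Of 41 measured genes of unfolded protein and amino acid stress, 12 were higher with shCdk8-2 (29.3%, against 9.2% of all genes) and 3 lower. After the refit 15 were higher (12.5% of all genes) and 3 lower, under the slide block 2 higher (1.17% of all genes) and none lower, and with both together 9 higher (3.76% of all genes). The median was small, 0.11. Chac1, which degrades glutathione, had 0.28, 0.40 and 0.25 with shCdk8-1, 0.81, 0.87 and 0.63 with shCdk8-2 and 0.30, 0.26 and 0.02 with shNTC. All shCdk8-2 arrays lay above the 6 others, and the difference was 0.46 (adjusted p = 0.0025, slide block adjusted p = 0.12).

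Cth, an enzyme of cysteine synthesis, differed by 0.45 (adjusted p = 9.6e-05; slide block 0.51, adjusted p = 0.038), and Trib3, a pseudokinase, by 0.43 (adjusted p = 0.0026, slide block adjusted p = 0.14). Hspa5, the main chaperone of the endoplasmic reticulum, was not called at 0.12 (adjusted p = 0.13). Atf4 itself differed by 0.24 (adjusted p = 0.091) and was called at 0.28 with the refitted background (adjusted p = 0.022). Atf3, also induced by stress and by growth factors, was lower at -0.39 (adjusted p = 0.0045, slide block adjusted p = 0.33).

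The promoters of the stress genes called between the hairpins show where an element of this response is spelled out. The letters TGATGNAA, the core of the element that ATF4 and C/EBP factors share, were searched on both strands (TTNCATCA on the other) in the 250 bases before the start site, with promoters from RefSeq (GRCm38.p6). A promoter was found for 9 of the 12 genes higher with shCdk8-2, and 3 of these held a match, as did 1 of the 3 lower genes and 3 of the 25 with a promoter among those not called. Over all 27025 genes with a promoter, 3.91% held one. The windows of 60 bases printed here show the 4 matches among called genes, 5′ to 3′ on the strand of the gene, with the match in capitals.
Chac1 (chr2:119351023-119351082, plus strand, higher with shCdk8-2): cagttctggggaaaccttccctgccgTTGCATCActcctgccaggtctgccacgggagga
Nupr1 (chr7:126625547-126625606, minus strand, higher): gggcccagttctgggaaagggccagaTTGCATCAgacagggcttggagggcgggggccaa
Pck2 (chr14:55540137-55540196, plus strand, higher): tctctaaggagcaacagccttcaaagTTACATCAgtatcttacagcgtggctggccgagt
Atf3 (chr1:191183410-191183469, minus strand, lower): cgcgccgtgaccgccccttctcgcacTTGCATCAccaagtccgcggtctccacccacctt
In each of these 4 promoters the match lies on the strand opposite to the gene, between 96 and 193 bases before the start site. A match is a description of these letters, not of a bound site. Nupr1, a stress-induced chromatin protein, differed by 0.42 (adjusted p = 3.2e-04), and Pck2, a mitochondrial enzyme of gluconeogenesis, by 0.26 (adjusted p = 0.029). Neither was called under the slide block (adjusted p = 0.069 and 0.13), and both were named for the match, after their values were seen.

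Immediate early, p53 and lipid synthesis genes were more often lower with shCdk8-2. Of 36 immediate early and ERK feedback genes 10 were lower (27.8%, against 8.65% of all genes) and 1 higher (2.78%, against 9.2%). Ier5, an immediate early gene, had -3.77, -3.80 and -3.76 with shCdk8-1, -4.87, -4.91 and -4.96 with shCdk8-2 and -4.60, -4.42 and -4.44 with shNTC, with no overlap of any groups. It rose by 0.71 with shCdk8-1 and fell by 0.43 with shCdk8-2, a difference of -1.14 (adjusted p = 6.0e-09), and Junb, an AP-1 subunit, differed by -0.57 (adjusted p = 1.6e-06).

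Of 27 p53 target genes 9 were lower (33.3%, against 8.65% of all genes) and 1 higher (3.7%), at a median of -0.16. Perp, a p53 target of cell adhesion and death, differed by -0.77 (adjusted p = 4.2e-10), Plk2, a polo-like kinase, by -0.48 (adjusted p = 1.0e-04, slide block adjusted p = 0.066) and Pmaip1, the pro-apoptotic NOXA, by -0.45 (adjusted p = 6.8e-05). Perp and Pmaip1 were near shNTC with shCdk8-1, at 0.10 and 0.02, and below it with shCdk8-2, at -0.67 and -0.42.

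Of 33 cholesterol and fatty acid genes 11 were lower (33.3%, against 8.65% of all genes) and 2 higher (6.06%). After Acss1 came Hmgcs1, the first committed enzyme of cholesterol synthesis, at -0.48 (adjusted p = 1.5e-05; its dimmer probe read 0.04), and Scd1, a fatty acid desaturase, at -0.49 (adjusted p = 0.020, slide block adjusted p = 0.13). The cholesterol exporter Abca1 was higher at 0.39 (adjusted p = 0.0048, slide block adjusted p = 0.069). Of 38 cell cycle genes 9 were lower (23.7%) and 1 higher (2.63%), with Ccnd1 (cyclin D1) at -0.44 (adjusted p = 1.7e-05). In these 4 lists, slide as a block left 5 immediate early, 3 p53, 2 lipid and 1 cell cycle genes called lower and none higher, against 1.55% of all genes called lower under the block.

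**Figure D3:**
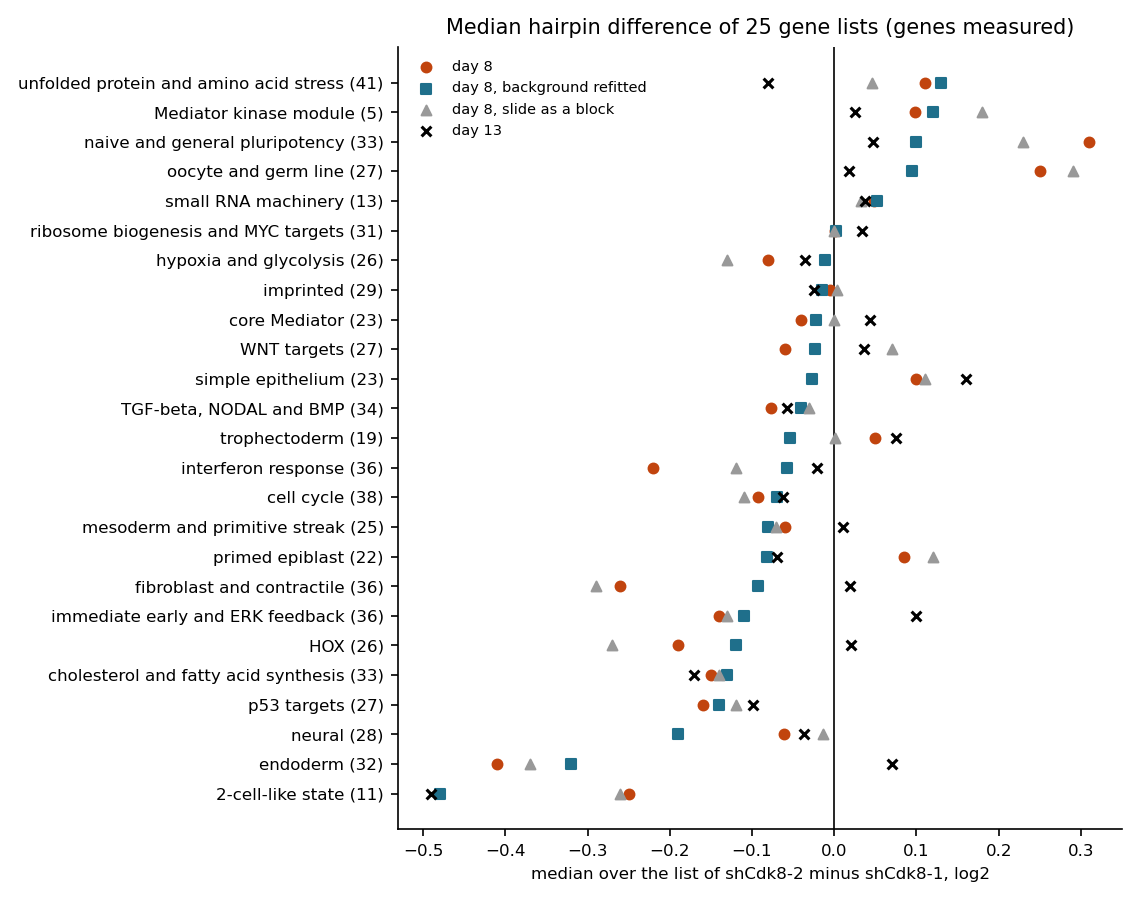
Median hairpin difference (x axis, log2) of the 25 gene lists, with the number of genes measured in brackets. Circles are day 8, squares day 8 with the refitted background, triangles day 8 with slide as a block and crosses day 13; the endoderm list lies at -0.41 on day 8 and near 0 on day 13, while the 2-cell list is negative on both days.

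The arrays of day 13 carry the same hairpins in other samples. On that day 2631 genes (11.7%) were called between the hairpins, 5.58% of all genes higher and 6.17% lower with shCdk8-2, and 1361 genes were called on both days in the same direction, 34% of the calls of day 8 and 51.7% of those of day 13. A further 31 were called in opposite directions. Of the genes called on day 8, 84.6% had the same sign on day 13, against 62.2% of all genes, and the correlation of the difference across genes was 0.45, a description over genes that are not independent. Slides 4 and 5 held shCdk8-1 and slides 7 and 8 shCdk8-2 on both days. With slide as a block, 582 of 610 genes called on day 8 (95.4%) had the same sign on day 13, against 70.3% of all genes. In that fit both days share the estimated slide effects. In the 1 array of each hairpin on day 13 that lay on a slide not used for that hairpin on day 8, 72.7% of the genes called on day 8 had the same sign, against 54.9% of all genes.

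Among genes higher with shCdk8-2 on both days, Reep4, of a family that shapes the endoplasmic reticulum, had -1.37, -1.68 and -1.47 with shCdk8-1 on day 8 and -0.49, -0.58 and -0.59 with shCdk8-2, near the shNTC values of -0.54, -0.51 and -0.43. The hairpins differed by 0.96 on day 8 and by 1.05 on day 13 (adjusted p = 2.5e-08 and 1.1e-08). Hal, which degrades histidine, differed by 0.92 and 0.96, Septin2, a cytoskeletal GTPase, by 0.91 and 0.92, Aire, the regulator of tissue antigens in thymus, by 0.87 and 1.12, and Dnmt3l by 0.84 and 1.06. Car4, a carbonic anhydrase, differed by 1.12 and 0.94, Tmem59l by 0.86 and 1.18, and Reck by 1.26 and 0.90. Of these 8 genes, 6 were called with slide as a block on day 8, while Car4 (adjusted p = 0.18) and Tmem59l (adjusted p = 0.068) were not. With the block and the refitted background together, all 8 were called.

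Among genes lower on both days, Dhrs7 differed by -1.48 and -1.46, Stac3 by -2.03 and -1.47, Acss1 by -1.33 and -1.57, Glod5 by -1.31 and -1.38, and Fhl2 by -1.18 and -1.02. Cxcl12, a chemokine, differed by -1.01 and -1.15, Dazap2 by -0.99 and -1.0, and Mapre2, a microtubule end-binding protein, by -1.08 and -1.04, though a second Mapre2 probe read 0.02 on day 8. A second Cxcl12 probe read -0.57 on day 8 (adjusted p over probes = 0.20) and 0.017 on day 13 (adjusted p = 0.98). On the probe used, all 8 were called on both days and, on day 8, also with slide as a block. In the 1 array of each hairpin on day 13 that lay on a slide not used for that hairpin on day 8, 5 of these genes differed by -1.67 (Stac3), -1.61 (Acss1), -1.43 (Glod5), -1.27 (Dhrs7) and -1.03 (Fhl2). This choice of genes took those with the largest smaller difference of the 2 days, so that their size on both days follows from the choice.

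**Figure D4:**
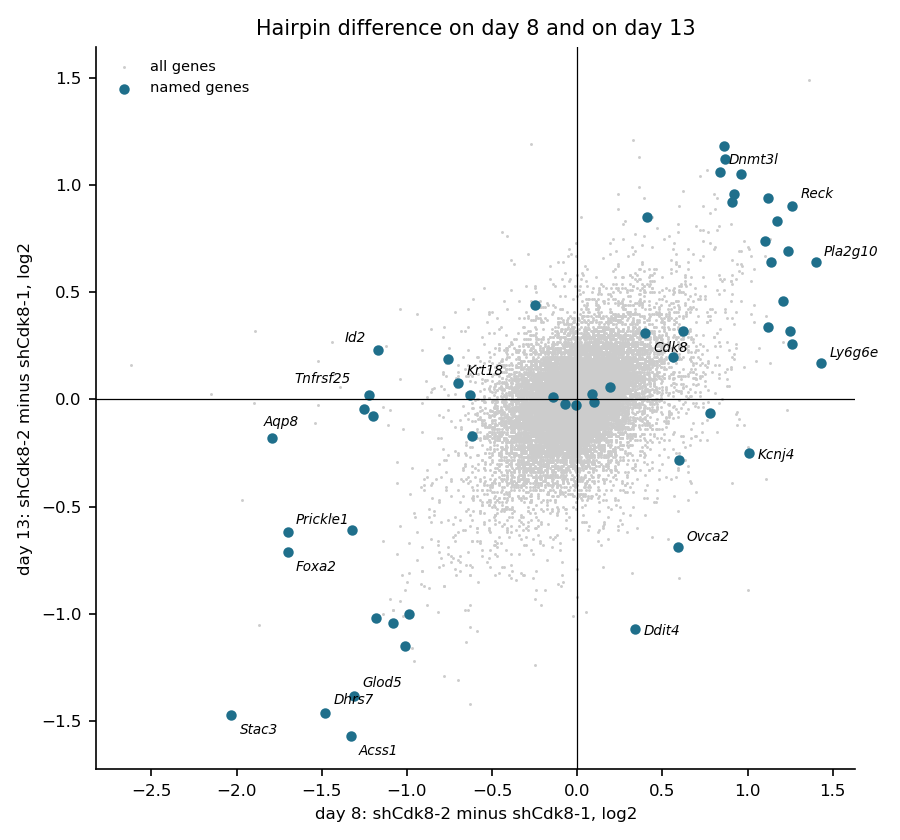
Hairpin difference on day 8 (x axis) against day 13 (y axis), both shCdk8-2 minus shCdk8-1 on the log2 scale; grey points are all genes and blue points 54 of the named genes (those named for their list alone are left out). Stac3, Acss1, Glod5 and Dhrs7 are low on both days, and Aqp8, Tnfrsf25 and Id2 are low on day 8 and near 0 or above it on day 13.

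The hairpin difference itself changed between the days for 452 genes (2.02%), 241 upward (1.08%) and 211 downward (0.942%). In the endoderm list 11 of 32 genes changed, all upward (1.08% of all genes). Aqp8 differed by -1.79 on day 8 and -0.18 on day 13, a change of 1.60 (adjusted p = 4.0e-07). Its ratios of day 13 were -0.95, -0.85 and -0.90 with shCdk8-1 and -1.09, -1.16 and -1.0 with shCdk8-2, both below shNTC at -0.19, -0.36 and -0.35. Krt18 went from -0.70 to 0.08 (adjusted p of the change = 3.5e-06), Krt8 from -0.63 to 0.02, Gata6 from -0.76 to 0.19 and Foxa2 from -1.70 to -0.71 (adjusted p = 1.9e-04). The shNTC arrays also lay apart between the days: Krt18, at -1.94, -1.89 and -1.87 on day 8, read -1.21, -1.22 and -1.17 on day 13. Gata6, at -1.24, -1.29 and -1.12 there, read -2.44, -2.59 and -2.54 on the later day. These shifts of the controls were not tested.

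Id2 and Id1 crossed over. Id2 was lower with shCdk8-2 by 1.17 on day 8 and higher by 0.23 on day 13 (adjusted p = 0.025), a change of 1.40 (adjusted p = 7.8e-08). On a second Id2 probe the day 13 difference was 0.20 and not called (limma adjusted p over probes = 0.21). Id1 went from -0.78 to 0.34, a change of 1.12 (adjusted p = 1.5e-07). Tnfrsf25 went from -1.22 to 0.02, and Prickle1 from -1.70 to -0.62.

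The stress genes moved the opposite way: of 41, 9 changed downward (0.942% of all genes) and 1 upward. Chac1 was higher with shCdk8-2 by 0.46 on day 8 and lower by 0.48 on day 13, a change of -0.94 (adjusted p = 9.0e-04). Nupr1 and Pck2, the other higher genes with the ATF4 letters in their promoters, changed by -0.76 and -0.64 (adjusted p = 3.2e-04 and 0.0046). Chac1 had day 13 values of 0.74, 0.73 and 0.75 with shCdk8-1 and 0.45, 0.28 and 0.05 with shCdk8-2. Ddit4, a stress-induced inhibitor of mTORC1, changed by -1.41 (adjusted p = 0.042), but its arrays scattered: on day 8 shCdk8-1 read -2.01, -2.12 and -1.13, while shCdk8-2 on day 13 read -2.16, -1.76 and -1.07. Kcnj4, a potassium channel, changed by -1.27 (adjusted p = 0.029) on 1 of 2 probes, the other reading 0.048 on day 8 and -0.033 on day 13, and Ovca2 by -1.29 (adjusted p = 0.022), with the shCdk8-1 array of replicate 3 on day 8 above the others of its group in all 3 genes. Without that array the hairpin difference changed for 758 genes. The count also moved with the processing of all arrays, to 934 (4.17%) after the refit and to 70 (0.313%) under the slide block.

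**Figure D5:**
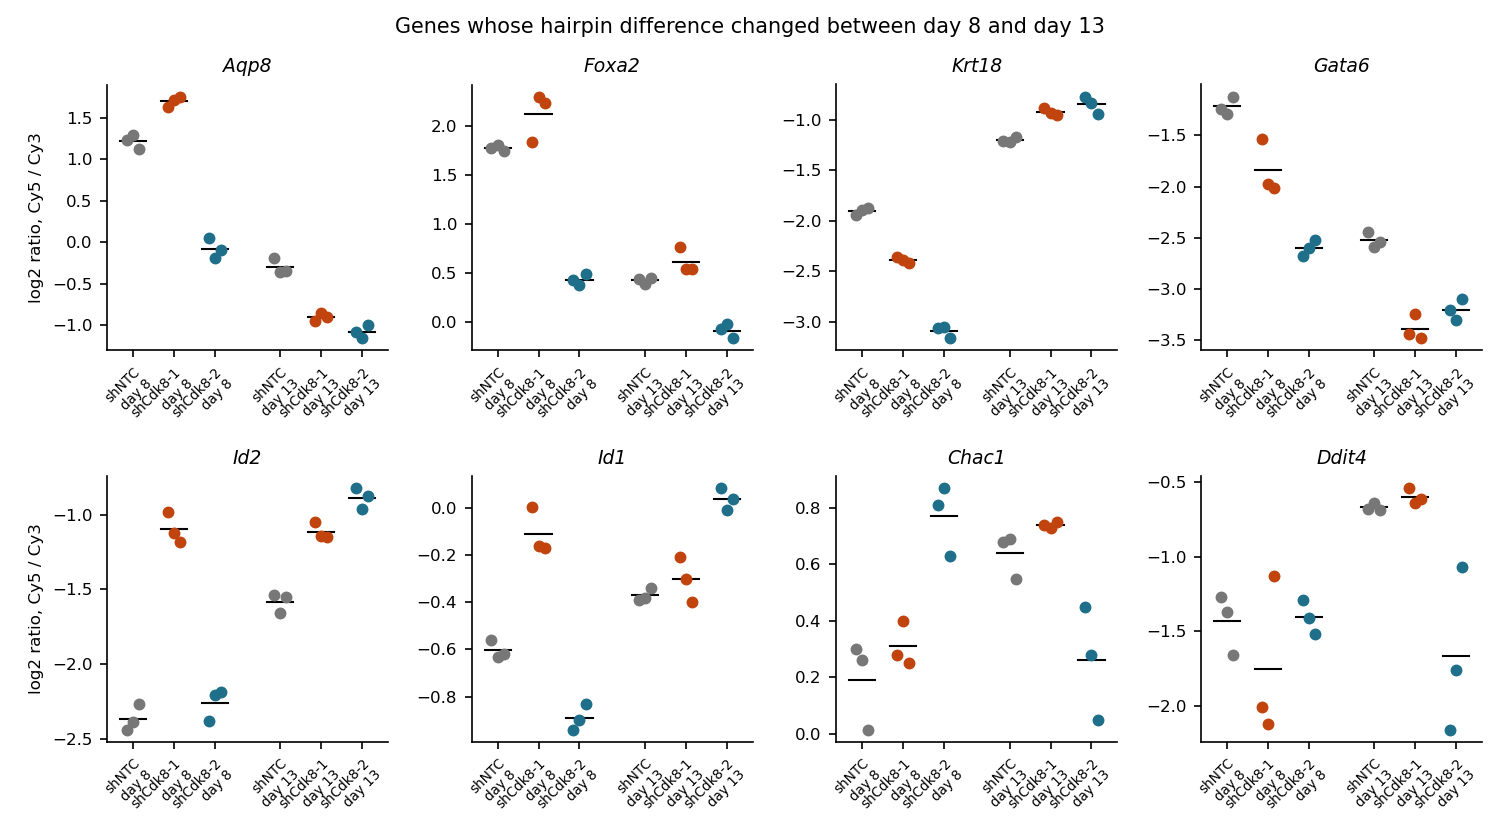
Log2 ratios (y axis) on each array of shNTC, shCdk8-1 and shCdk8-2 on days 8 and 13 for 8 genes whose hairpin difference changed between the days. Points are arrays and bars means of 3. Krt18 and Gata6 separate the hairpins on day 8 and overlap on day 13. The Aqp8 hairpins lie much closer on day 13, still without overlap. Id2 and Id1 cross over, and Ddit4 scatters within groups.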

How the data were processed

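The authors deposited scanner tables of 24 Agilent 2-colour arrays of 45018 spots, made with Agilent Feature Extraction 10.7 per the submitters' processing notes, and a table of log ratios. Foreground and background intensity of both channels was taken from the deposited tables. The deposited log10 ratio of Cy5 over Cy3, per the file headers, and the authors' log2 values in the table of log ratios served as alternatives. With limma 3.58.1 (R 4.3.3; data.table package, version 1.17.8) each array was corrected by normexp (offset 50) and loess, without control spots (1639) and outlier flags. Spots of a probe were averaged, and a gene was read from its brightest kept probe: 28303 of 41174 probes passed the filter on dim signal, 63 with a missing value were dropped, and 22394 genes were tested, 13731 of them with a symbol. Symbols came from the array design, updated through accessions; the headers name another mouse build than the promoter set (GRCm38.p6), so no probe coordinates are printed. A fit of all 24 arrays by group (lmFit, eBayes) gave each difference, with Benjamini-Hochberg adjustment over all genes. Each group has 3 arrays, which limits the precision.

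Named genes were the kinase module, the 12 highest and 12 lowest called differences without overlap of arrays, 8 genes in each direction called on both days, up to 3 called members of each list in each direction, 12 identity genes and the 3 largest changes between days in each direction. The choices by size were made among genes with a symbol. Named genes, gene lists (25, with 647 measured genes) and comparisons were chosen with earlier results of these data known. The refitted background sets a local background over 1.5 times the median of its array to that median; it, alone, with the slide block or on 6 arrays, was chosen after seeing the data. Background, normalization, filter, probe rule, samples, slide, replicate block and left-out arrays were varied, 29 settings in all. The calculation was tested on simulated data. The values of 1 gene of the naming rule are not reported here; it stays in the fit and in the counts of its list.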

Additional observations from a re-analysis of the deposited data

Results flagged for a closer look

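For 35 of the named genes reported here the hairpin difference (shCdk8-2 minus shCdk8-1) differed between day 8 and day 13 by limma's test of the difference itself, at an adjusted p under 0.05; values are the change, day 13 minus day 8, on the log2 scale. Over all genes 2.02% were called.

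Among genes of endoderm and simple epithelium the change was upward in each gene listed here: Aqp8 changed by 1.60, Foxa2 by 0.99, Col4a1 by 0.98, Gata6 by 0.95, Krt18 by 0.78, Sox7 by 0.69, Krt8 by 0.65, Krt7 by 0.64 and Igf2, the imprinted growth factor, by 0.45. Sox7 was not called on day 8 and was higher with shCdk8-2 on day 13, by 0.44 (adjusted p = 0.0026). Gata2, a GATA factor of blood and trophoblast, changed by 1.13, and Flt1, a VEGF receptor, by 0.98.

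Id2 changed by 1.40 and Id1 by 1.12. Among the other genes with the lowest differences on day 8, Tnfrsf25 changed by 1.24, Glipr1 by 1.20, Bmper by 1.12 and Prickle1 by 1.07. Among immediate early, p53 and contractile genes, Snai1, a repressor of epithelial genes, changed by 0.65, Anxa1 (annexin A1) by 0.61, Pmaip1 by 0.51, Ccn2, a matricellular growth factor, by 0.49, Ier5 by 0.48, Perp by 0.48 and Plk2 by 0.42. Gdf9, an oocyte growth factor, changed by 0.56 and Tbx3 by 0.44.

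The change was downward for Ddit4 at -1.41, Ovca2 at -1.29, Kcnj4 at -1.27, Chac1 at -0.94 and Lefty1 at -0.88. It was also downward for Car14, a carbonic anhydrase, at -0.66, Pecam1, an adhesion molecule, at -0.48, Nkd1, a WNT feedback inhibitor, at -0.46 and Tead2, a partner of YAP, at -0.37. The change was tested on the brightest probe of each gene, and other probes of Gata6, Tnfrsf25, Kcnj4 and Bmper gave no called hairpin difference on either day. A second Prickle1 probe read -0.36 on day 8 and 0.035 on day 13.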

How the results depend on the processing

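Counts of named genes in this section cover 54 of them, without those named for their list alone. Of the 43 called on day 8, 40 kept their direction in every other setting that gave a value. Of these, 12 also stayed called in each. Of the 11 not called, 4 kept their direction. Leaving out 1 array at a time gave 2718 to 4416 calls on day 8 (main 3999), 40 to 44 of the named genes called (main 43), 137 to 208 list members (main 194), a Cdk8 difference of 0.34 to 0.48, 2612 to 3127 calls on day 13, 1090 to 1426 on both days and 305 to 758 for the change between days, 758 without shCdk8-1 replicate 3 of day 8. With the background estimated as in RMA, day 8 gave 507 calls, 14 named genes and 26 list members, day 13 157 calls, both days 75 and the change 4, and Cdk8 was at -0.017. Median centring gave 834, 64 list members, 260, 146 and 16, with Cdk8 at 0.27. Slide as a fixed block gave 610, 26 named genes, 48 list members, 1269, 336 and 70, Cdk8 at 0.19, Ovca2 at -0.027 and 1 call in the reference channel (10 without it, also 1 with only 6 arrays). Joined to the refitted background, it gave 1599, 103 list members and 864, Cdk8 at 0.26, Ovca2 at -0.025 and Pou5f1 at -0.053. The refitted background gave 2047 on both days and 934 for the change. Fits of only the 6 arrays gave 658 calls, 51 list members and a Cdk8 difference of 0.40 that was not called, and of the 9 arrays of day 8, 2087 and 121. The Feature Extraction log ratio gave 4735 on day 13, 2496 on both days and 1319 for the change, and the authors' own values gave 4708, 2488 and 1315. Array weights gave 4446 and 991, and no filter on dim probes 275 changes. Leaving out both arrays with log ratios closer to 0, shCdk8-1 replicate 1 of day 8 and shMed12-1 replicate 3 of day 13, gave 724 changes. The mean over probes gave 0.15 for Cdk8. The cause of these shifts was not tested, beyond fewer arrays or degrees of freedom in the smaller fits.

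Replicate numbers did not pair the arrays: deviations of same-numbered arrays of the hairpins correlated at 0.14, 0.21 and -0.04. With the number as a replicate block over all groups there were 3903 calls and Cdk8 was at 0.40; with the block on 6 arrays, 75 calls, 19 named genes, 11 list members and Cdk8 at 0.40, not called (adjusted p = 0.093).

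Fabp7 and Sox9 were not well above background on every shCdk8-2 array.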

Other observations

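Further lists gave these values on day 8, where 8.65% of all genes were lower and 9.2% higher with shCdk8-2. Of 36 fibroblast and contractile genes 9 were lower with shCdk8-2 and 2 higher, with a median of -0.26 that was -0.093 with the refitted background. Of 26 hypoxia and glycolysis genes 7 were lower and none higher, and 7 and 3 with the refitted background. Of 36 interferon response genes 5 were lower and 1 higher, and 3 and 4 with the refitted background. Of 29 imprinted genes 6 were lower and 2 higher, of 31 genes of ribosome biogenesis 6 and 2, of 27 WNT targets 3 and 3, of 25 mesoderm genes 4 and 2, and of 19 trophectoderm genes 5 and 1. Of 23 core Mediator subunits 4 were lower and 2 higher, and of 13 genes of the small RNA machinery, which processes hairpins, 2 were lower and 1 higher.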
